A study of Mus musculus with 8 samples.

Results

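Lox, Loxl1, Loxl2, Loxl3, Loxl4, Plod1, Plod2, Plod3, Tgm2 and Serpinh1 code for lysyl oxidases, lysyl hydroxylases, a transglutaminase and a collagen chaperone. They are 10 of the 20144 mouse genes that could be named on the arrays, and they were chosen by symbol and found through the RefSeq transcript accession of each probe. They had 17 probes, and 6 of the 10 genes had more than 1. All 10 had a signal well above background somewhere in the comparison and were tested, as were 16521 genes in all.

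The arrays compared p75NTR-positive cells that lacked CD45 and Ter119, sorted by FACS from collagenase-digested liver of E11.5 fetuses, of E13.5, of E14.5 and then of E17.5 fetuses and of P1 newborn mice, adult liver cells sorted as vitamin A-positive and labelled HSC (hepatic stellate cells), purified bone marrow MSC (mesenchymal stem cells), and MEF (cultured fibroblasts from embryonic skin). Each group had 1 array and there were no replicates, so no value has a replicate error. Strain, sex and pooling of animals are not given in the sources used here. MEF had been cultured, and the MSC and MEF came from organs other than liver. p75NTR, the nerve growth factor receptor Ngfr, and vitamin A storage were used in the sorts, so Ngfr is no finding on the p75NTR arrays.

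Lysyl oxidases are secreted copper enzymes that turn lysines and hydroxylysines of collagen and elastin into aldehydes, which then condense into covalent crosslinks. Lysyl hydroxylases act earlier, inside the endoplasmic reticulum, and make the hydroxylysines that set which crosslink can form. Hepatic stellate cells are a main source of collagen and of these enzymes in scarred liver.

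Each level is the log2 Cy3 signal of a probe minus the log2 75th percentile of its array, so 0 is the signal that 75% of probes lie below. The arrays held 43020 gene spots each, 58.8 to 64.5% of them were well above background and none was saturated. Of 12 stellate cell marker genes, 11 or 12 were well above background on each liver-derived array, 5 in MSC and 9 in MEF. Their summed linear level was between 107.9 and 882.5 on the liver-derived arrays, against 3.58 in MSC and 14.2 in MEF. Ngfr, used in the sort, is in that list. The sum of 10 hepatocyte markers was 352.9 at E13.5 and 1051 at E14.5, above the stellate sums of 107.9 and 207 there. On the other liver-derived arrays it was between 4.505 and 100.3. The sum of 10 erythroid markers was between 20.1 and 213.9 on the liver-derived arrays, highest at E17.5. Of 9 leukocyte and Kupffer markers, 8 were well above background in MEF, 4 in MSC and 2 to 7 on the liver-derived arrays. Their summed level was 16.5 in MEF, 4.80 in MSC and between 2.92 and 11.1 on the liver-derived arrays. The part of such cells in the levels was not tested. Gfap, a marker of quiescent stellate cells, was well above background at E17.5 and in adult HSC and on no other array. The slope of the spike-in controls was 0.849 at E11.5 and between 0.922 and 0.933 elsewhere, and its part in differences from E11.5 was not tested. Spots of the same probe on 1 array had a median SD of 0.07 over 399 replicated probes, which sets a limit of 0.20 below which 2 levels cannot be told apart even as spots. That limit covers the spot alone, not sorting, RNA or animals. In sorted bulk RNA, fewer cells of a type and less RNA per cell cannot be told apart.

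Lox, the founding lysyl oxidase, had levels of -1.91 at E11.5, -1.09 at E13.5, -0.60 at E14.5, 0.69 at E17.5, 1.23 at P1, -6.45 in adult HSC, 3.42 in MSC and 3.14 in MEF. It was higher at each later p75NTR stage, not well above background in adult HSC, and highest in MSC and MEF. By this probe all neighbours in the order of its 7 measured arrays differed by more than the spot limit. A second probe gave the same order of the 5 stages, from -1.98 at E11.5 to 0.97 at P1. It was also not well above background in adult HSC, and correlated with the first at r = 0.999 over the 8 arrays. Its levels in MSC and MEF, both at 2.9, were within the spot limit. Beside Lox, a list of 10 smooth muscle and portal fibroblast markers had summed linear levels of 72.3 at E11.5, 52.6 at E13.5, 106.2 at E14.5, 225.9 at E17.5, 396.4 at P1, 41.0 in adult HSC, 532.1 in MSC and 487.6 in MEF. Of that list 10 were well above background on each p75NTR array and in MEF, and 9 in adult HSC and MSC; Cnn1 was below background in adult HSC and Myh11 in MSC. Tagln, with a level of 5.26, made up most of the adult HSC sum. In MSC the list divided: Acta2, Cnn1 and Fbln2 were higher than on every p75NTR array. Myh11 (-7.61), Entpd2 (-6.31), Eln (-5.60) and Gli1 (-1.62) were lower in MSC than on every p75NTR array. Tagln, Thy1 and Cd34 lay between. Eln is also among the elastic fibre genes described with the substrates. The part of such cells in the Lox levels was not tested.

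Loxl4, a lysyl oxidase with scavenger receptor domains, was at -6.63 and not well above background at E11.5, then at -5.19 at E13.5, -3.70 at E14.5, -2.94 at E17.5, -2.24 at P1, 0.999 in adult HSC, 0.18 in MSC and -1.25 in MEF. Like Lox it was higher at each later p75NTR stage, but adult HSC held its highest level where Lox was below background. The second Loxl4 probe was also below background at E13.5, followed the same order of stages and was likewise highest in adult HSC, at 0.92.

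Loxl1, which acts mainly on elastic fibres, had levels of 2.11 at E11.5, 2.27 at E13.5, 1.84 at E14.5, 3.48 at E17.5, 5.28 at P1, 2.80 in adult HSC, 2.18 in MSC and 4.49 in MEF. It was highest at P1, and E13.5, MSC and E11.5 were neighbours that differed by less than the spot limit. Its second probe was also highest at P1, at 3.24, and correlated with the first at r = 0.99 over 8 arrays.

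Loxl2, which crosslinks collagen IV of basement membranes, spanned a narrower range, with 3.79 at E11.5, 3.38 at E13.5, 3.75 at E14.5, 4.92 at E17.5, 4.62 at P1, 4.04 in adult HSC, 2.74 in MSC and 4.37 in MEF. It was highest at E17.5 and lowest in MSC by the probe taken. The other 2 probes were instead highest in MEF, at 2.85 and 2.27, followed by E17.5, at 2.74 and 2.12. Both were lowest at E13.5, and they correlated with the first at r = 0.82 and 0.78. Loxl3, a further member of the family, had -1.19 at E11.5, -0.60 at E13.5, 0.09 at E14.5, 0.91 at E17.5, 0.34 at P1, 1.86 in adult HSC, -1.19 in MSC and 0.20 in MEF. Adult HSC stood highest by 0.94, and P1, MEF and E14.5 each lay within the spot limit of their neighbour.

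**Figure D1:**
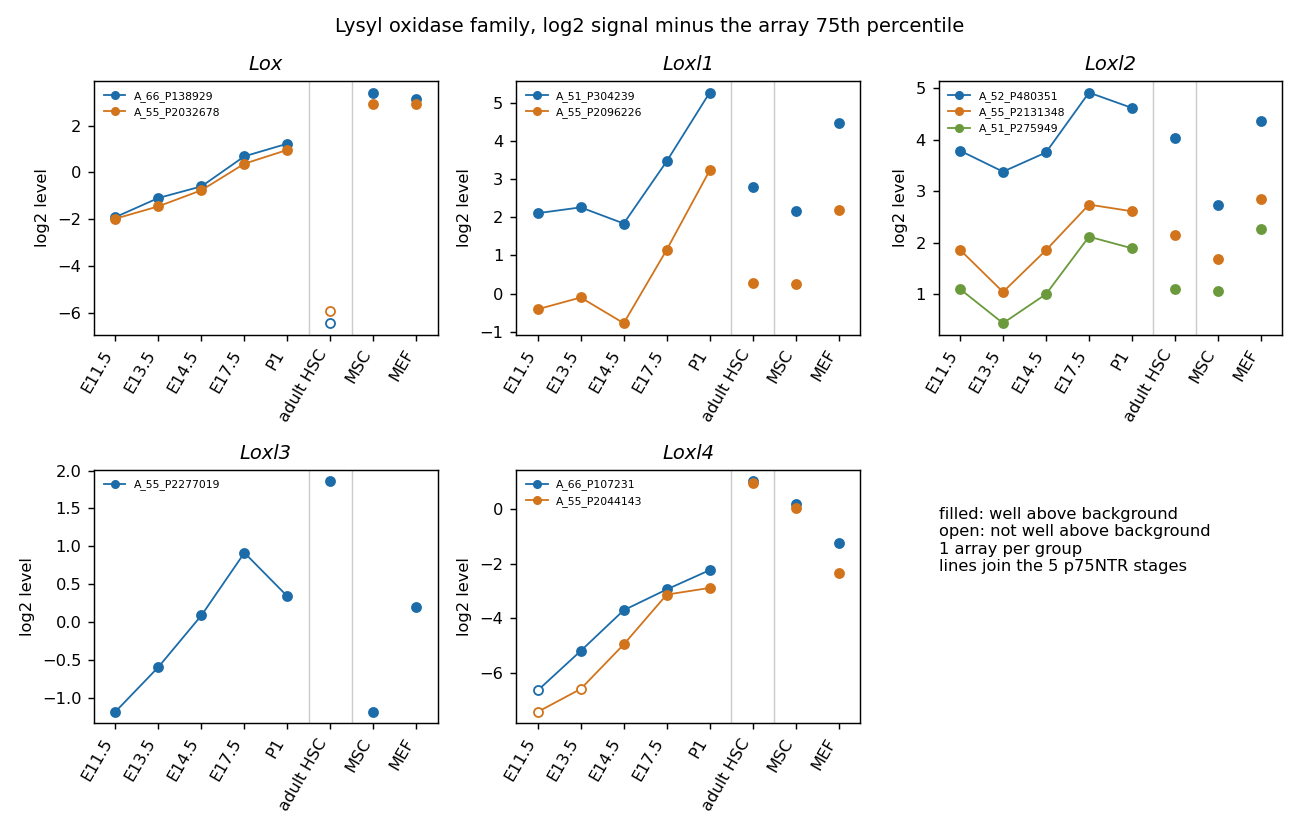
Log2 level (signal minus the array's 75th percentile) of every probe of Lox, Loxl1, Loxl2, Loxl3 and Loxl4 on the 8 arrays, 1 array per group, with lines joining the 5 p75NTR stages and open points not well above background. Lox reaches 1.23 at P1 and lies at -6.45, below background, in adult HSC, where Loxl4 has its highest level, 0.999.

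Plod1, the lysyl hydroxylase of the collagen helix, had levels of -2.18 at E11.5, -1.72 at E13.5, -1.73 at E14.5, -1.18 at E17.5, -0.78 at P1, 0.01 in adult HSC, -0.71 in MSC and -1.05 in MEF. It was lowest at E11.5 and highest in adult HSC, and its E13.5 and E14.5 levels were within the spot limit. The second Plod1 probe was higher at every later stage, from -3.26 at E11.5 to -2.10 at P1 and -0.73 in adult HSC.

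Plod2, which hydroxylates the telopeptide lysines at collagen ends, had 0.42 at E11.5, -0.24 at E13.5, -0.23 at E14.5, 0.79 at E17.5, 0.16 at P1, -1.27 in adult HSC, 0.35 in MSC and 0.75 in MEF. Adult HSC was lowest, 1.03 below the next array, and E17.5 and MEF were level within the spot limit. Plod3, which hydroxylates lysines and also takes part in adding sugars to hydroxylysine, had 1.81 at E11.5, 1.82 at E13.5, 1.78 at E14.5, 2.45 at E17.5, 2.13 at P1, 2.47 in adult HSC, 3.86 in MSC and 3.42 in MEF. All 6 liver-derived arrays lay below both MSC and MEF, and the 3 earliest stages were within the spot limit of each neighbour.

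Tgm2, tissue transglutaminase, which joins glutamine to lysine side chains in matrix proteins, had 0.98 at E11.5, 3.12 at E13.5, 3.60 at E14.5, 3.43 at E17.5, 4.21 at P1, 6.11 in adult HSC, 0.84 in MSC and 0.49 in MEF. All 6 liver-derived arrays lay above MSC and MEF, but E11.5 stood above MSC by 0.14, within the spot limit. Its second probe followed the same course (r = 0.998 over 8 arrays). Endothelial cells also express Tgm2, and 10 endothelial markers had summed linear levels of 17.04 at E11.5, 15.5 at E13.5, 35.0 at E14.5, 56.2 at E17.5, 17.4 at P1, 224.9 in adult HSC, 1.29 in MSC and 1.55 in MEF. Of them 8 to 10 were well above background on the liver-derived arrays and 4 in MSC and in MEF. Plvap, with a level of 7.72, made up most of the adult HSC sum. On that array Clec4g was at 3.57, Kdr at 0.82, Stab2 at -0.43 and Tie1 at -3.15. Cdh5 was at -3.97, Pecam1 at -4.13, Tek at -4.48 and Lyve1 at -5.14 there, and Emcn was below background. The part of endothelial cells in the Tgm2 levels was not tested.

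Serpinh1, the collagen chaperone HSP47, had 5.74 at E11.5, 5.69 at E13.5, 5.87 at E14.5, 5.84 at E17.5, 5.25 at P1, 5.63 in adult HSC, 5.51 in MSC and 5.90 in MEF. The 8 arrays were in a narrow band, P1 was lowest, and every other pair of neighbours in the order differed by less than the spot limit.

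**Figure D2:**
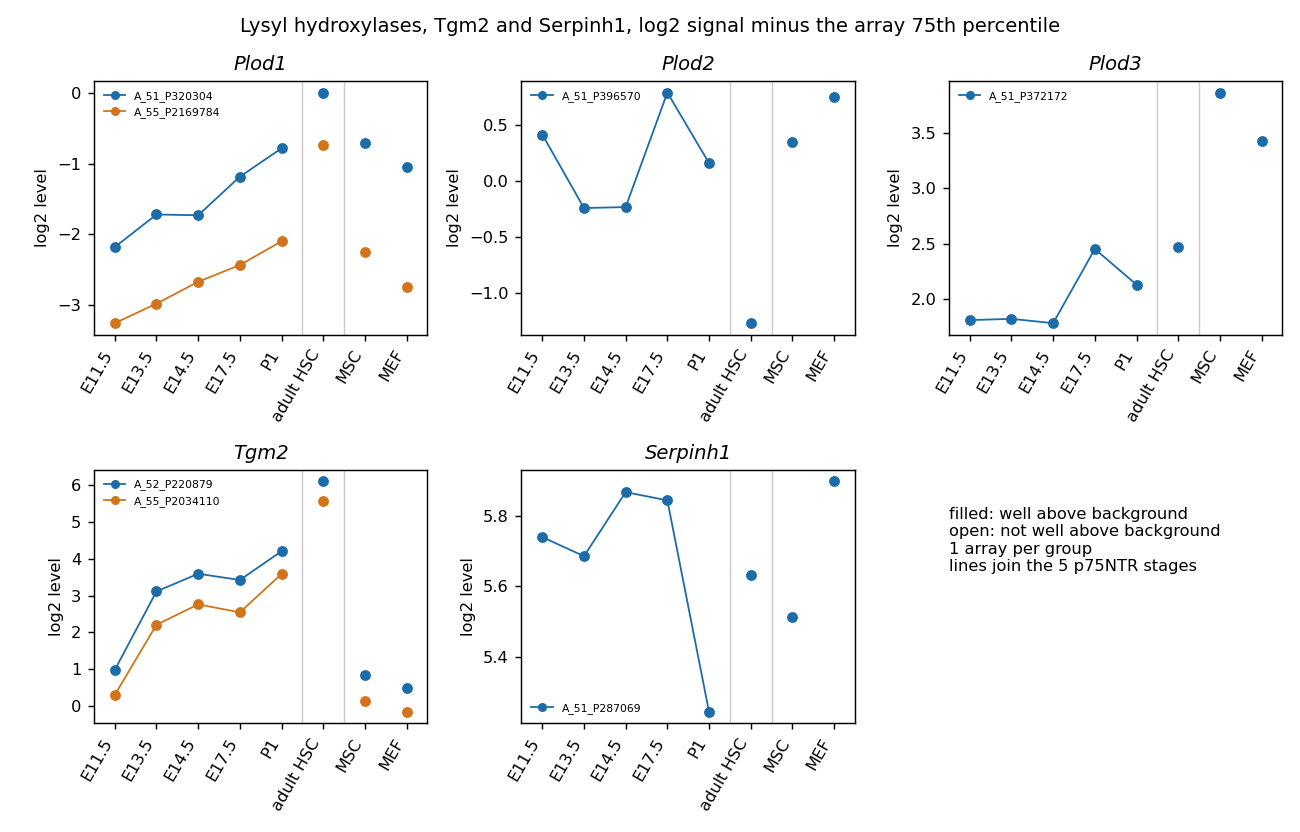
Log2 level (signal minus the array's 75th percentile) of every probe of Plod1, Plod2, Plod3, Tgm2 and Serpinh1 on the 8 arrays, 1 array per group, with lines joining the 5 p75NTR stages. Plod2 is lowest in adult HSC at -1.27, Tgm2 is highest there at 6.11, and Plod3 is highest in MSC and MEF; the vertical scales differ between panels.

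RefSeq promoter windows, from 250 bases before to 50 bases after the gene start, were given for 4 of the 10 genes. Loxl4 and Plod1 are shown because their levels ran together (r = 0.96 over the 5 liver-derived arrays with both well above background), and Serpinh1 because its level varied least. They are on the minus strand of GRCm38.p6, at chr19:42612757-42613056 for Loxl4, chr4:147936727-147937026 for Plod1 and chr7:99353190-99353489 for Serpinh1. Capitals mark matches, on either strand, to the TATA box as TATAAA, the CCAAT box, the GC box as GGGCGG, the hypoxia response core as ACGTG or the heat shock element as GAANNTTC.
Loxl4: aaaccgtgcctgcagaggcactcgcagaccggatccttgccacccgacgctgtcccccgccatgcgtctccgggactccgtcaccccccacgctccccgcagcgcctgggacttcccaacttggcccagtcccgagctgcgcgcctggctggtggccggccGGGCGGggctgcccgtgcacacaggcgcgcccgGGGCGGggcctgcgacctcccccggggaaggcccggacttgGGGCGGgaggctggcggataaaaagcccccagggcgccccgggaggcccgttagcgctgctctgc
Plod1: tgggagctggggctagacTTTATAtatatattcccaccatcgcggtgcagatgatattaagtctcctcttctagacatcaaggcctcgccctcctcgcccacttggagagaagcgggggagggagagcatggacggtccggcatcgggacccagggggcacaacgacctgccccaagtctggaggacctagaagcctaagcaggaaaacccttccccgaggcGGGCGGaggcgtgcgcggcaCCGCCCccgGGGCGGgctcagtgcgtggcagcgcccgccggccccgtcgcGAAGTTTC
Serpinh1: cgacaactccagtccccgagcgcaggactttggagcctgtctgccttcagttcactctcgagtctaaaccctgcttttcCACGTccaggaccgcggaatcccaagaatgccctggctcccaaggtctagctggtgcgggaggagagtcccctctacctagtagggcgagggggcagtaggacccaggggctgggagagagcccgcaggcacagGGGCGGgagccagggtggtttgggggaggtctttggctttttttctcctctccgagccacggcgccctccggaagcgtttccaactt
Loxl4 and Plod1 each held 3 GC boxes and Serpinh1 held 1, where 35.7% of 32851 promoter windows held at least 1. Plod1 also held 1 TATAAA, which 13.6% of windows held, and 1 GAANNTTC, which 7.86% held. Serpinh1 held 1 ACGTG, found in 19.6% of windows, and none of these 3 held CCAAT, found in 37.4%. GC content was 75.0% for Loxl4, 64.3% for Plod1 and 62.3% for Serpinh1, against a median of 52.7% over all windows. Such matches describe the letters and were not measured as binding.

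The first fit asked how the genes ran over the order of the 5 p75NTR stages, as a limma slope in log2 units per stage step. Of the 10 genes 9 had a slope above 0, where the median slope over all genes was -0.03. Of the 10, 0 passed at a limma adjusted p under 0.05. No gene of 15538 passed (0%), whereas 12.4% had an upward and 15.6% a downward slope at an unadjusted p under 0.05 (1932 and 2427 genes). At that unadjusted threshold 6 of the 10 were upward and 0 downward. Loxl4 had a slope of 1.101 ± 0.10 and Lox of 0.81 ± 0.08 per step (SE, n = 5 arrays), each with a limma adjusted p of 0.0590. That was the lowest value of any gene, but other genes shared it, among them Adamts2 and Ltbp4 of the lists below. Lox and Loxl4 were higher at each of the 4 steps, as were 3.31% of all genes, while 6.74% were lower at each step. The step of Loxl4 from E11.5 starts from a signal below background.

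Of the 6, the other 4 had slopes of 0.76 ± 0.23 for Loxl1, 0.68 ± 0.19 for Tgm2, 0.46 ± 0.13 for Loxl3 and 0.33 ± 0.07 for Plod1 per step (limma adjusted p 0.130, 0.114, 0.114 and 0.0794). Loxl2 had 0.32 ± 0.13, Plod3 0.13 ± 0.08, Plod2 0.05 ± 0.14 and Serpinh1 -0.08 ± 0.08 per step, with limma adjusted p between 0.198 and 0.839. The median slope was 0.39 over the 10 genes and -0.03 over all genes. The 4 fetal arrays shared slide 1 and P1 lay on slide 2. Within slide 1 the slope was 0.83 for Lox and 1.25 for Loxl4, but 0.37 for Loxl1, 0.70 for Loxl3 and 0.05 for Serpinh1. Without E11.5, the Tgm2 slope was 0.31. With limma's robust prior and variance trend, Lox (adjusted p = 0.0242) and Loxl4 (adjusted p = 0.0286) passed, and so did 7.44% of all genes. With normexp background correction, the Loxl4 slope was -0.03.

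The second fit set the 6 liver-derived arrays against MSC and MEF. Of the 10 genes 0 passed at a limma adjusted p under 0.05, where 1.57% of 16521 genes did (0.847% higher and 0.726% lower), and 3 had an unadjusted p under 0.05, where 19.6% of all genes did. These 3 were Plod3, Tgm2 and Lox, and they were also those whose groups did not overlap. Tgm2 alone was higher on every liver-derived array, as were 12.8% of genes, and Plod3 and Lox were lower on every one, as were 10.5% of genes.

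Plod3 averaged 2.08 on the liver-derived arrays and 3.64 on MSC and MEF, a difference of -1.56 ± 0.31 (SE, n = 6 and 2 arrays; 95% interval -2.28 to -0.85), or 2.96-fold lower, with a limma adjusted p of 0.0546. Its adjusted p lay between 0.0351 and 0.540 over 20 alternatives. Plod3 passed in 6 of them, but leaving out adult HSC and using the p75NTR arrays alone were the same fit. It passed without adult HSC (limma adjusted p = 0.0378), where 524 of 16400 genes passed. With limma's robust prior and variance trend it also passed (adjusted p = 0.0351), where 1.71% of genes did. Another of the 6 left out MEF, so that MSC was the only array on that side, and the difference was -1.78. Tgm2 averaged 3.57 on the liver-derived arrays and 0.67 on MSC and MEF, a difference of 2.91 ± 1.11 (95% interval 0.34 to 5.48), with a limma adjusted p of 0.217. Lox averaged -1.36, with 5 of its 6 liver-derived arrays well above background, against 3.28 on MSC and MEF. Its difference was -4.63 ± 1.81, limma adjusted p 0.224, and without adult HSC it was -3.61 with an adjusted p of 0.0763.

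Serpinh1 differed by -0.04 ± 0.26 (95% interval -0.65 to 0.58), with a limma adjusted p of 0.954. The other 6 had differences between -2.75 ± 1.76 for Loxl4 and 0.73 ± 0.79 for Loxl3, with overlapping groups and limma adjusted p between 0.414 and 0.858. Within slide 2, which held P1, adult HSC, MSC and MEF, the difference was -1.34 for Plod3, 4.49 for Tgm2 and -5.89 for Lox (limma adjusted p 0.540, 0.501 and 0.543). There Loxl4 differed by -0.09, Loxl3 by 1.59, and Loxl1 and Plod1 were higher in the liver-derived cells by 0.71 and 0.49.

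**Figure D3:**
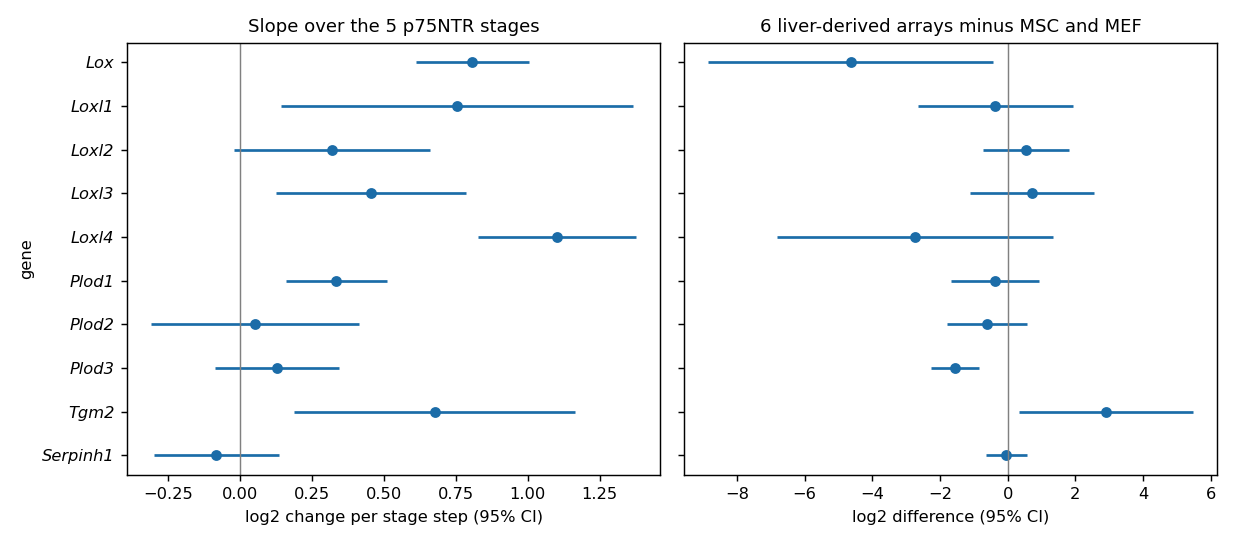
Left, limma slope of each gene in log2 units per stage step over the 5 p75NTR arrays; right, log2 difference of the 6 liver-derived arrays minus MSC and MEF, with bars for 95% intervals. Lox and Loxl4 have the slopes furthest from 0 relative to their bars, and Plod3 at -1.56 has the narrowest interval of those that exclude 0 on the right.

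P1 and E11.5, the ends of the stage series, had 1 array each and were compared by size alone, with no test. At least 2-fold higher at P1 were 6 of the 10 genes, where 16.6% of all genes were. None of the other 4 reached 2-fold, and 31.1% of all genes did so in either direction. Tgm2 was 9.35-fold, Loxl1 9.003-fold, Lox 8.83-fold, Loxl3 2.87-fold and Plod1 2.64-fold higher at P1, and Loxl4 at least 8.68-fold, a bound set by the lowest signal well above background at E11.5. Loxl2 was 1.78-fold higher, and Plod2, Plod3 and Serpinh1 differed by -0.26, 0.32 and -0.49 on the log2 scale. With normexp, Loxl4 differed by 0.75 and Plod1 by 0.68, both under 2-fold. P1 and E11.5 lay on different slides, so slide and stage cannot be told apart. Beside these genes, 9 of 10 hepatocyte markers (median log2 difference 2.84) and 8 of 10 smooth muscle and portal fibroblast markers (median 4.11) were at least 2-fold higher at P1, and 3 of 11 stellate cell markers were (median 0.72). The part of such cells in the differences was not tested.

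Adult HSC and P1 shared a slide, and the genes divided. In adult HSC 3 of the 10 were at least 2-fold higher, where 13.6% of genes were, and 3 were at least 2-fold lower, where 21.8% were. Loxl4 was 9.44-fold, Tgm2 3.74-fold and Loxl3 2.87-fold higher in adult HSC. Lox was at least 144-fold lower by the probe taken and at least 119.5-fold lower by the other, Loxl1 5.58-fold lower and Plod2 2.70-fold lower. These bounds hold for the processed signal; with normexp, which adds 50 to each signal, the Lox difference was -3.63 on the log2 scale. The 2 probes of each of Lox, Loxl1, Loxl4 and Tgm2 gave the same sign. Plod1 was 0.79 higher by the probe taken and 1.37 by the other, and Loxl2, Plod3 and Serpinh1 differed by -0.58, 0.34 and 0.39, all on the log2 scale. Over all genes past 2-fold, 38.5% were higher in adult HSC with the 75th percentile and 72.8% with the array median as scaling, which moved the median gene from -0.06 to 0.73. Under the median scaling the measured difference of Lox was -6.90, of Loxl1 -1.70 and of Plod2 -0.65, so only Plod2 of these came under 2-fold, Loxl2 turned to 0.21, and Plod1 (1.58), Serpinh1 (1.17) and Plod3 (1.12) went past 2-fold. The sorts of the 2 arrays also differed, p75NTR at P1 and vitamin A in the adult. Between them all 10 smooth muscle and portal fibroblast markers were at least 2-fold lower in adult HSC. At least 2-fold higher were 10 of 12 stellate cell markers. All 10 hepatocyte markers (median log2 difference -4.67) and 6 of 7 mesothelial markers were also at least 2-fold lower. Of 8 erythroid markers 5 were lower and 1 higher by that rule. Of 10 endothelial markers 2 were lower and 3 higher, and of 7 leukocyte and Kupffer markers 1 and 2. The part of such cells in the differences was not tested.

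MSC and MEF differed in 4 of the 10 genes by at least 2-fold. Loxl4 was 2.68-fold higher in MSC, where 13% of all genes were higher, while Loxl1 was 4.98-fold, Loxl2 3.11-fold and Loxl3 2.62-fold lower in MSC, where 22.6% were lower. Lox, Plod1, Plod2, Plod3, Tgm2 and Serpinh1 were within 2-fold, from -0.40 for Plod2 to 0.44 for Plod3 on the log2 scale. With the array median as scaling the share of genes past 2-fold that were higher in MSC was 68.0%, against 36.4%, and the median gene moved from 0.05 to 0.66. Under that scaling Loxl3, at -0.77, came under 2-fold, Plod3, at 1.05, went past it, and Plod2 (0.22) and Serpinh1 (0.23) turned to higher in MSC. Loxl1 (-1.70), Loxl2 (-1.02) and Loxl4 (2.04) stayed past 2-fold.

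**Figure D4:**
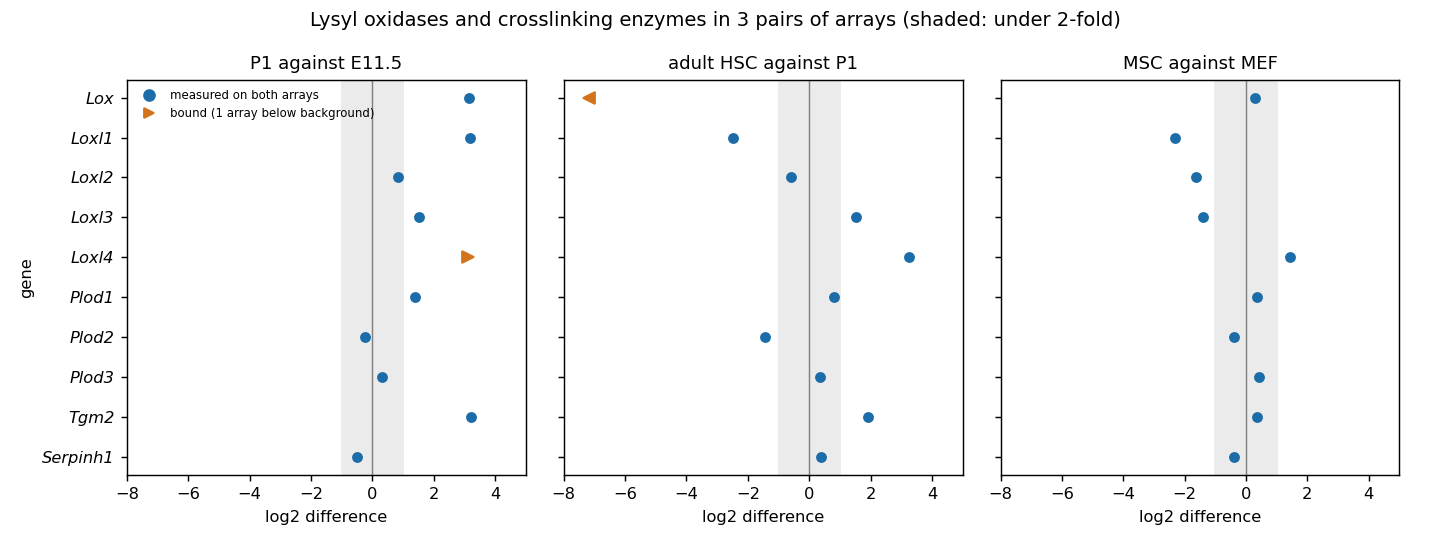
Log2 difference of the 10 genes in 3 pairs of arrays, P1 minus E11.5, adult HSC minus P1 and MSC minus MEF, 1 array per group, with the range under 2-fold shaded and arrowheads for bounds where 1 array was below background. In the adult HSC pair Loxl4, Tgm2 and Loxl3 lie above 2-fold and Lox, Loxl1 and Plod2 below it.

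The genes' courses over the 6 liver-derived arrays are described by Pearson's r, over arrays that differ in stage and sort at once. Arrays on which either gene was not well above background are left out. That leaves the 5 p75NTR stages for Lox, and 4 of them for Lox with Loxl4 (r = 0.95). Lox ran with Plod1 (r = 0.98), Loxl3 (0.89), Loxl1 (0.86), Loxl2 and Tgm2 (each 0.83) and Plod3 (0.78). It ran less with Plod2 (0.29) and opposite to Serpinh1 (-0.51). With the adult HSC array, where Lox was below background, r over 6 arrays was 0.82 for Lox and Plod2, -0.45 for Lox and Tgm2 and -0.46 for Lox and Plod1, so these signs rest on that array. Loxl4, over the 5 liver-derived arrays from E13.5 to adult HSC, had r = 0.96 with Tgm2 and with Plod1 and 0.94 with Loxl3. Of the 5882 other genes well above background everywhere and with an SD of at least 0.5, the most alike over 8 arrays were App, Ifitm2 and Il6st for Loxl3 (r = 0.999, 0.99 and 0.99) and B3gnt2, Lrp10 and Coq10a for Plod1 (each 0.99). For Tgm2 they were Itpr1, Polg2 and Laptm4b (0.97, 0.97 and 0.96), for Plod3 Pdcd6ip, Calu and Cmtm7 (each 0.98), and for Loxl1 Nacad, Tnfaip6 and Myorg (0.96, 0.95 and 0.95). For Loxl2 they were Samd4, Fbn1, the fibrillin of elastic fibre microfibrils, and Dubr (0.94, 0.93 and 0.93). Plod2 reached 0.90 at most (Itga6, Plxna2 and Tnfrsf25) and Serpinh1 0.85 (Magt1), with Zkscan1 and the folding enzyme Pdia4 at 0.84. Lox and Loxl4, below background on 1 array, were not set against these other genes.

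Genes that act beside these enzymes were listed by role, and 0 of them passed either limma fit. Of 13 tested fibrillar collagens and elastic fibre genes, 9 had an upward and 1 a downward slope at an unadjusted limma p under 0.05. Over all genes 12.4% had an upward and 15.6% a downward one. The median slope of the list was 0.38 per step. Eln, elastin, a substrate of Lox and Loxl1, had levels of -3.68 at E11.5, -1.65 at E13.5, -1.79 at E14.5, 1.95 at E17.5, 4.11 at P1, -2.28 in adult HSC, -5.60 in MSC and 1.70 in MEF. Like Loxl1 it was highest at P1, and its slope was 1.92 ± 0.26 per step (limma adjusted p = 0.0658). Col5a3, a chain of collagen V, had a slope of 1.80 ± 0.33 (limma adjusted p = 0.0769). Ltbp4, which holds latent TGF-beta on elastic fibres, differed by 2.49 ± 1.08 between liver-derived arrays and MSC and MEF (limma adjusted p = 0.257). Col2a1, the cartilage collagen, differed by -4.13 ± 2.71 (limma adjusted p = 0.423), and without MEF by 0.68. In adult HSC against P1, 9 of 13 of this list were at least 2-fold lower and 0 higher, where 21.8% of all genes were lower and 13.6% higher. With the array median as scaling 4 were lower and 2 higher. In MSC against MEF 9 of 14 were lower and 0 higher, where 22.6% and 13% of all genes were, and 8 were lower with the array median.

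Among 10 tested procollagen processing genes 6 had an upward slope at the unadjusted threshold and 0 a downward one. Over all genes 12.4% and 15.6% did. The median slope of the list was 0.34 per step. Adamts2, which removes the N-propeptide, had 0.91 ± 0.10 per step and the same lowest adjusted p as Lox (limma, 0.0590) by the probe taken, but 0.35 with the mean of all its probes (limma adjusted p = 0.430). Fmod, the collagen-binding proteoglycan fibromodulin, had 1.05 ± 0.18 (limma adjusted p = 0.0727). Adamts3, a related protease, was well above background on all 6 liver-derived arrays and on neither MSC nor MEF. Its difference was 2.90 ± 0.61 (limma adjusted p = 0.0680). Without adult HSC its limma adjusted p was 0.0419, where 524 of 16400 genes passed. Pcolce2, an enhancer of C-propeptide removal, differed by -3.24 ± 1.45 (limma adjusted p = 0.267).

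Of 17 tested folding and modification genes 5 had an upward slope at the unadjusted threshold and 0 a downward one. Over all genes 12.4% and 15.6% did. The median slope of the list was 0.12 per step. Crtap, a subunit of the prolyl 3-hydroxylase complex, had 0.38 ± 0.07 per step (limma adjusted p = 0.0745), and P3h3, a prolyl 3-hydroxylase, 0.38 ± 0.09 (limma adjusted p = 0.0992). P3h2, another of that family, differed by 3.00 ± 0.72 between the liver-derived arrays and MSC and MEF (limma adjusted p = 0.0960), with no overlap. P4ha3, a prolyl 4-hydroxylase subunit, differed by -1.39 ± 1.55 (limma adjusted p = 0.635) and was below background in adult HSC.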

How the data were processed

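mRNA was measured on 8 one-colour Agilent arrays, 1 per group. Per the file headers, each intensity is a spot signal that Agilent Feature Extraction 11.5.1.1 gave after subtracting background, with no scaling between arrays. The authors' deposited log2 table was used as an alternative.

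Here outlier spots were dropped, spots of a probe averaged, and the log2 75th percentile of each array subtracted. A RefSeq table (GRCm38.p6) named 67.4% of 39429 probes by transcript accession, and the probe with the highest mean stood for a gene. Fits used limma 3.58.1 in R 4.3.3 on genes above background somewhere in the fit, with Benjamini-Hochberg adjustment over all genes, and were tested on simulated data. No array replicates another, so the spread is that between stages or cell types. Pairs of arrays were compared by a 2-fold rule. A signal below background was replaced, for a bound, by the lowest one well above it on that array.

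The 10 genes and the lists were chosen with earlier results of these data known. Genes named beside them were the 2 of each list with the largest absolute difference and the largest absolute slope, and the 3 most correlated with each of the 10. Alternatives were normexp, median and quantile scaling, filters, probe averaging, the authors' table, a floor, slide, limma's prior and leaving out arrays. The normexp alternative used the median spot signal, the column the files hold. The number of arrays limits the precision.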

Additional observations from a re-analysis of the deposited data

How the results depend on the processing

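No paired analysis was possible because each group had 1 array. In the comparison with MSC and MEF, the p75NTR arrays alone and leaving out adult HSC are the same fit. For the slope, slide 1 alone and leaving out P1 are the same fit. Against MSC and MEF, 260 genes passed, but 52 with normexp, 160 with a filter on all arrays, 72 with slide as a block, 0 within slide 2 and 524 with the p75NTR arrays alone; leaving out 1 array gave 86 to 1283, with 95 without E13.5, 90 without E14.5, 86 without E17.5, 170 without P1, 524 without adult HSC and 1283 without MEF. Of the passing genes 53.8% were higher in liver-derived cells, against 69.2% with normexp, where the median of all genes was 0.34 and not 0.02, 44.3% with median scaling (-0.36) and 23.9% without MSC. For the stage slope 0 genes passed, but 93 with quantile scaling, 657 with a filter on all arrays and 1156 with the trend and robust prior; leaving out 1 array gave 0 each time. The genes past 2-fold numbered 4643 for P1 against E11.5, 5298 for adult HSC against P1 and 5399 for MSC against MEF, and 2402, 2977 and 3010 with normexp. P1 against E11.5 had 53.3% of these higher, and 42.2% with median scaling; adult HSC against P1 had 50.1% higher with quantile scaling.

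The difference from MSC and MEF turned sign for Loxl1 (0.71 with slide as a block, 0.71 within slide 2, -1.53 to 0.79 leaving out 1 array, the highest without MEF), Loxl2 (-0.030 with the mean of its probes, -0.29 to 1.35 leaving out 1 array, the lowest without MSC), Plod1 (0.084 with normexp, 0.49 with slide as a block, 0.49 within slide 2), Serpinh1 (0.0090 with quantile scaling, -0.23 to 0.16 leaving out 1 array, above 0 without P1 and without MEF) and Col2a1 (-8.94 to 0.68 leaving out 1 array, the highest without MEF). None of these had passed. Slide as a block and slide 2 alone gave the same differences, because every array of slide 1 was liver-derived. The slope turned sign for Loxl4 (-0.031 with normexp), Plod2 (-0.024 with normexp, -0.028 to 0.22 leaving out 1 array, below 0 without E13.5 and without E17.5) and Serpinh1 (0.11 with normexp, 0.049 within slide 1, -0.13 to 0.049 leaving out 1 array, the highest without P1). The cause was not tested. The normexp setting adds 50 to each signal, and it also starts from the median spot signal with its own background correction. Among the genes named beside the 10, the difference from MSC and MEF was smaller with normexp, 1.26 for Adamts3 and -1.16 for Pcolce2. Lox kept the sign of both fits in every alternative, and its slope also passed with quantile scaling (adjusted p = 0.0465) and with the filter (adjusted p = 0.0350). With 1 array per group and levels near background for Lox in adult HSC and for Loxl4 at E11.5, these bounds depend on the background estimate.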

Other observations

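Other transglutaminases and related proteins, F13b and Epb42 among them, were listed together. Of these, Tgm3 was well above background on all 8 arrays, with levels from -1.16 at E17.5 to -0.39 at E13.5. Tgm6 was so on 5, at -5.12 at E14.5, -4.71 at P1, -5.20 in adult HSC, -5.93 in MSC and -5.36 in MEF. The other 7 were below background on at least 4 arrays. Of 9 listed, 8 could be tested and 0 passed either limma fit. At an unadjusted limma p under 0.05, 3 had a downward and 0 an upward slope, where 15.6% and 12.4% of all genes did. Tgm5, a keratinocyte transglutaminase, was at -2.68 at E11.5, -2.94 at E13.5 and -5.50 at E14.5, below background on the other liver-derived arrays and in MEF, and at -5.06 in MSC. F13a1, the coagulation factor XIII A chain, was at -4.72 at E11.5, -4.61 at E13.5 and -4.42 in MEF and below background on the other arrays. Their slopes were -1.16 ± 0.26 and -0.78 ± 0.22 per step (SE, limma adjusted p = 0.0880 and 0.114), and both rest on signals below background at the later stages. F13b, the factor XIII B chain, which hepatocytes make, was above background at E13.5, E14.5 and E17.5, with -3.58, -0.53 and -5.22, and on no other array. The hepatocyte marker sum on those arrays was 352.9, 1051 and 100.3, and its part was not tested. Epb42, the red cell membrane protein 4.2, was above background at E17.5 alone, at -4.27, the array with the highest erythroid marker sum, 213.9.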
